A study of Mus musculus with 4 samples.

Results

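The osteoclast-like macrophages described here were the cells that the deposited annotation names Ctsk_Macro, and they made up 587 of 34447 sorted CD45+ cells, or 1.704% (exact 95% interval 1.57 to 1.85). Membership was taken from that label alone. The cells came from mouse melanomas of the YUMM1.7 line, which carried ovalbumin and had acquired resistance to targeted therapy (RTT). All hosts were Rag2-/- mice, which make no T or B cells of their own, and all received ovalbumin-specific OT-1 T cells on day 7 before collection on day 10, 72 h later. There were 4 libraries, 1 per group, and each pooled 3 tumours before the sort. CTRL tumours grew from cells with an empty mCherry vector and carry no treatment in the labels. IRF3/7 tumours grew from cells forced to express the interferon regulatory factors IRF3 and IRF7 from transduced vectors, as a bulk-sorted line. COX2i tumours grew from the mCherry line in mice given the cyclooxygenase-2 inhibitor celecoxib, and COX2i + 5-AZA tumours in mice given celecoxib with the DNA methyltransferase inhibitor 5-azacytidine. As no group had a second library, the differences below are between single libraries, have no replicate check and carry no test, and the intervals cover counting error only.

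Osteoclasts are large cells of the monocyte lineage that resorb bone. Their precursors need the cytokine M-CSF, read by Csf1r, and the ligand RANKL (Tnfsf11), read by RANK (Tnfrsf11a), which with co-receptors such as Oscar induces the master transcription factor Nfatc1. Mature cells fuse, pump protons through a vacuolar ATPase and release cathepsin K, tartrate-resistant acid phosphatase and matrix metalloproteinases. Interferons and the transcription factor Irf8 are known to restrain this differentiation.

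Counts were unique molecular identifiers (UMIs) of a probe assay on fixed cells, and a level is the sum of UMIs over the members of a library divided by their total and scaled to 1000000 (CPM). The members held 3813507 UMIs in CTRL, 151445 in IRF3/7, 1627563 in COX2i and 440769 in COX2i + 5-AZA, with medians of 9304.5, 10917, 9190 and 10987 UMIs per cell. The floor of 3 UMIs used for a gene with 0 UMIs corresponds to 0.787, 19.8, 1.84 and 6.81 CPM. Only CTRL and COX2i had at least 50 members and were compared with each other, and the values of the other libraries are set beside them. Droplet barcodes were shared between libraries for 191 members (32.5%), against 29.1% of all cells, and never within a library. No doublet caller was run.

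Members were found in every library, and CTRL held most of them. They were 380 of 8953 cells in CTRL, a share of 4.24% (3.84 to 4.68). COX2i held 157 of 9133 cells, or 1.72% (1.46 to 2.01), COX2i + 5-AZA 37 of 10032, or 0.369% (0.260 to 0.508), and IRF3/7 13 of 6329, or 0.205% (0.109 to 0.351). The intervals of CTRL, COX2i and COX2i + 5-AZA did not overlap, while those of COX2i + 5-AZA and IRF3/7 did. The share in CTRL was 2.47 times that in COX2i (2.04 to 2.99), 11.5 times that in COX2i + 5-AZA (8.20 to 16.6) and 20.7 times that in IRF3/7 (11.9 to 39.2). COX2i exceeded COX2i + 5-AZA by 4.66 times (3.24 to 6.86).

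The order changed with the denominator. Among cells of all classes labelled Macro or TAM the members made up 5.08% in CTRL, 2.96% (1.59 to 5.01) in IRF3/7, 2.30% in COX2i and 0.899% (0.634 to 1.24) in COX2i + 5-AZA. IRF3/7 held only 439 macrophages of any class, and on this scale the interval of its share held the value of COX2i. The authors cut the class from clusters built on the most variable genes, so a share also depends on where that cut fell. Counting instead the cells of any class with at least 4 of the 7 markers gave 4.58% of all cells in CTRL, 0.284% in IRF3/7, 1.74% in COX2i and 0.498% in COX2i + 5-AZA, in the same order as the label.

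**Figure D1:**
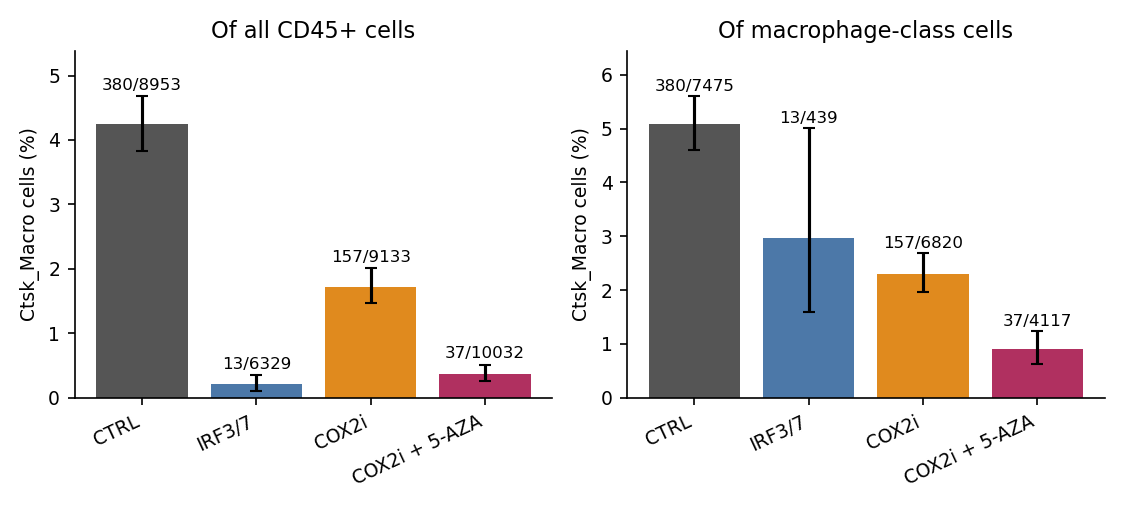
Share of Ctsk_Macro cells in percent by library, of all CD45+ cells and of the macrophage classes; bars are the shares of 1 library each and lines are exact 95% intervals for counting error. CTRL had the highest share on both scales (4.24% and 5.08%), and IRF3/7 moved from the lowest place of all CD45+ cells (0.205%) to the second of macrophages (2.96%).

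The members carried 7 osteoclast markers at higher levels than the other classes. Since the class was cut from expression clusters of these same data, this describes the label and is no independent check of it. Ctsk, the collagen-degrading protease cathepsin K (ENSMUSG00000028111, chromosome 3, 95499256 to 95509362, plus strand, GRCm38), stood at 27454 CPM in CTRL, 7217 in IRF3/7, 22053 in COX2i and 19273 in COX2i + 5-AZA. In CTRL the next highest class, neutrophils, had 259 CPM, and TAM_C1q, the largest macrophage class there, had 79.3. The members held 95.9% of all Ctsk UMIs of the CTRL library, 94.5% in COX2i, 81.2% in COX2i + 5-AZA and 54.8% in IRF3/7.

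Acp5 encodes tartrate-resistant acid phosphatase (chromosome 9, 22126727 to 22135711, minus strand) and stood at 19738, 5652, 13739 and 13039 CPM in the same order of libraries. Mmp9, a gelatinase of the resorption pit (chromosome 2, 164940780 to 164955850, plus strand), had 26966, 7468, 18184 and 21211 CPM. Both genes were lower in IRF3/7 than in the other libraries by more than the counting error. The class was not the only source of Acp5: it held 89.2% of the library's UMIs in CTRL but 15.7% in IRF3/7 and 27.9% in COX2i + 5-AZA.

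Oscar, an immunoglobulin-like co-receptor of osteoclasts, stood at 426, 112, 324 and 440 CPM. Atp6v0d2, the proton pump subunit that osteoclast precursors need for fusion, had 1004, 456, 865 and 869 CPM, and mast cells were the next class with 198 CPM in CTRL. Slc9b2, a sodium and proton antiporter induced by RANKL, had 893, 132, 844 and 492 CPM. Mt3, a metallothionein best known from brain, had 1684 CPM in CTRL, 1796 in IRF3/7, 1494 in COX2i and 2074 in COX2i + 5-AZA, and was thus the marker that was not lowest in IRF3/7. Of its UMIs the members held 98.7, 97.8, 97.1 and 93.0%, although other metallothioneins were not particular to them: Mt1 had 713 CPM in CTRL members and 647 in TAM_C1q.

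**Figure D2:**
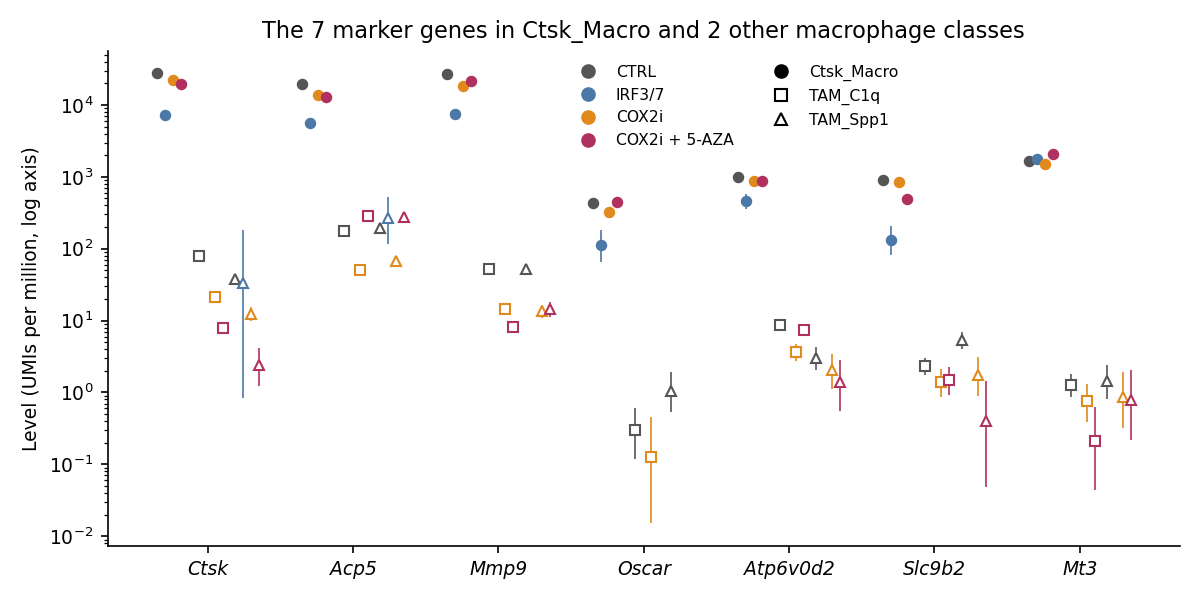
Level of the 7 markers (CPM, log axis) in Ctsk_Macro, TAM_C1q and TAM_Spp1 cells of each library, where a point is 1 library, lines are exact 95% counting intervals, and levels of 0 UMIs and the 7 TAM_C1q cells of IRF3/7 are not drawn. Ctsk stands at 27454 CPM in CTRL members and at 79.3 CPM in TAM_C1q cells of that library.

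Together the 7 markers took 7.82% of the members' UMIs in CTRL, 2.28% in IRF3/7, 5.75% in COX2i and 5.74% in COX2i + 5-AZA. Per cell the median share was 8.21, 1.43, 5.54 and 5.22%. Members differed among themselves: in CTRL the share ran from 0.184 to 18.0% of a cell's UMIs, and in the 13 IRF3/7 members from 0.00567 to 7.98% (quartiles 0.372 and 5.03). All 7 markers were seen in 280 of the 587 members, at least 4 in 564 (96.1%) and fewer than 3 in 8, of which 2 were IRF3/7 members.

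Depth bears on such counts, so each member was also thinned to 2000 UMIs, which left out 14 shallower cells. At that depth at least 4 markers were seen in 90.9% of members in CTRL, 61.5% in IRF3/7, 84.7% in COX2i and 83.8% in COX2i + 5-AZA, and at 1000 UMIs the value for IRF3/7 was 38.5% (of 13 cells). For Ctsk the thinned share with a UMI was 99.2% of CTRL members (99.5% before thinning), against 5.09% of cDC2, a dendritic cell class, and 6% of neutrophils. For Oscar it was 33.5% (55% before thinning), against 0.164% of cDC2. Median depth was 9304.5 UMIs for these members and 4106 for cDC2. Outside the class, 73 of 33860 cells had at least 4 markers in unthinned counts. Of these cells 52 lay in the other macrophage classes, their median depth was 14209 UMIs, and in 5 of them the markers exceeded 2% of UMIs.

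The members also carried general macrophage genes, at levels that differed from those of other macrophages. Cd68, a lysosomal glycoprotein of macrophages, stood at 2632 CPM in CTRL members and 2056 in TAM_C1q. Csf1r, the M-CSF receptor, had 1867, 713, 1614 and 1271 CPM in members of CTRL, IRF3/7, COX2i and COX2i + 5-AZA. Adgre1, which encodes F4/80, was lower, with 111 CPM in CTRL members and 618 in TAM_C1q, and Fcgr1, a high-affinity Fc receptor, had 99.6 and 585. Ptprc, the CD45 used for the sort, was seen in 295 of 380 CTRL members. Ranked over genes, the profile of CTRL members was most like that of TAM_C1q (Spearman's rho 0.894), followed by TAM_cycling (0.859) and TAM_Spp1 (0.845). These correlations are across genes of the same library, which are no replicates, and are given as a description.

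Markers of other lineages were low. Summed over the list, neutrophil markers (S100a8, S100a9, Csf3r, Cxcr2 and Retnlg) stood at 46.2 to 206 CPM across libraries, dendritic cell markers at 6.60 to 14.1, mast cell markers at 0 to 8.92 and fibroblast and melanoma markers at 6.60 to 102. In COX2i a single member held 301 of the 335 neutrophil UMIs. Of the 11 T and NK cell markers only Trac, the constant segment of the T cell receptor alpha chain, was seen in CTRL, COX2i and COX2i + 5-AZA, while Cd3d, Cd3e, Cd3g, Cd8a, Prf1 and Gzmb were at 0 there. Monocyte markers summed to 111 to 579 CPM, and in COX2i + 5-AZA 1 member held 235 of the 255 UMIs. The part of these few cells in the results was not tested, apart from the values without them given below.

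Against other macrophages the class was compared within a library with TAM_C1q, cells marked by complement C1q, and TAM_Spp1, cells marked by osteopontin. The classes were cut from expression clusters of these same data, so what follows is a description. Of 11164 genes with at least 20 UMIs, 996 (8.92%) were at least 2-fold higher in members than in TAM_C1q of CTRL and 1884 (16.9%) at least 2-fold lower. Against TAM_Spp1 in CTRL 1471 of 10655 (13.8%) were higher and 1690 (15.9%) lower. In COX2i the shares were 10.9 and 14% against TAM_C1q and 14.5 and 12.9% against TAM_Spp1.

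Besides the markers, the genes highest over both classes in both libraries were Kazn, Rufy4, Steap4, Siglec15, Car2, Ephx2, Uchl1, Spns2, Coq8a, Scin, Tmem204, Spry1 and Slc45a3. Siglec15, a sialic acid receptor that signals through DAP12 in osteoclasts, stood at 207 CPM in CTRL, 66 in IRF3/7, 200 in COX2i and 202 in COX2i + 5-AZA, against 1.11 CPM in TAM_C1q of CTRL. Rufy4 had 106, 33, 110 and 99.8 CPM, and the members held 95.1% of its UMIs in CTRL. Kazn, a desmosome-associated protein, had 70.3, 39.6, 68.8 and 93 CPM, with 0.298 CPM in TAM_C1q of CTRL. The levels of these 3 genes were close between CTRL, COX2i and COX2i + 5-AZA.

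Steap4, a metalloreductase, was also near the top, with 308 CPM in CTRL, 46.2 in IRF3/7, 88.5 in COX2i and 145 in COX2i + 5-AZA. Coq8a, needed for coenzyme Q synthesis, had 259, 145, 200 and 193 CPM, and Scin, an actin-severing protein, 151, 106, 195 and 234. Spry1, an inhibitor of receptor tyrosine kinase signalling, stood at 381 CPM in CTRL, 6.60 in IRF3/7 (1 UMI), 232 in COX2i and 168 in COX2i + 5-AZA. Car2, the carbonic anhydrase that supplies protons, was 79.7, 264, 104 and 422 CPM, so it was higher in the libraries with few members. The NK cells of CTRL, only 11 cells, carried more of it, at 1017 CPM.

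**Figure D3:**
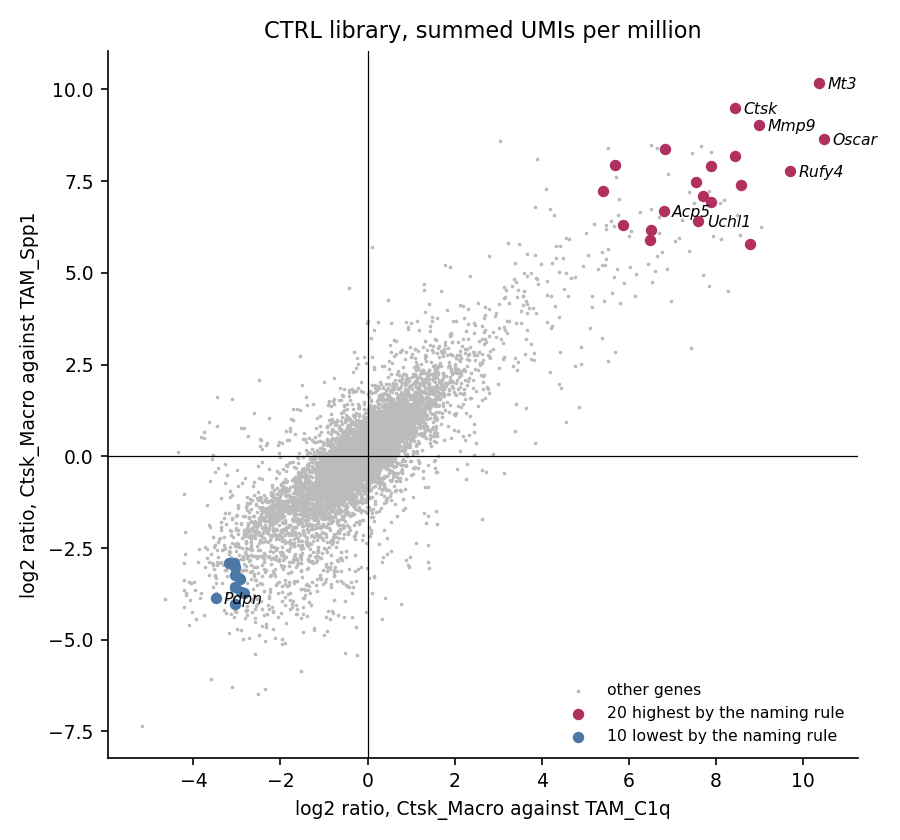
Each point is a gene in the CTRL library, with the log2 ratio of its CPM in Ctsk_Macro against TAM_C1q on the x axis and against TAM_Spp1 on the y axis; the coloured points are the 20 highest and 10 lowest genes by the naming rule, some of them with their names. The markers lie at the upper right, with Ctsk at 8.44 and 9.51, and Pdpn at the lower left with -3.49 and -3.86.

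Receptors and adaptors of osteoclasts stood higher in members than in TAM_C1q of CTRL for 6 of 10 genes past 2-fold and lower for 0. Of all genes 8.92% were past 2-fold higher and 16.9% lower. The median log2 ratio of the list was 1.44. Tnfrsf11a (RANK) was at 539 CPM in CTRL, 442 in IRF3/7, 500 in COX2i and 368 in COX2i + 5-AZA, against 219 CPM in TAM_C1q of CTRL. Itgb3, the integrin chain of the sealing zone, had 185 CPM in CTRL, 86 in COX2i, 83.9 in COX2i + 5-AZA and 0 UMIs in IRF3/7. Calcr, the calcitonin receptor that marks late osteoclasts, had 22.3 CPM in CTRL (85 UMIs), 6.76 in COX2i (11 UMIs) and 15.9 in COX2i + 5-AZA (7 UMIs). Of the whole CTRL library's Calcr UMIs the members held 97.7%. Trem2, also an osteoclast receptor, did not stand out, with 149 CPM in CTRL members and 185 in TAM_C1q.

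Of the ligands, Tnfsf11 (RANKL) had 0 UMIs in the members of all 4 libraries. NK cells held 89.6% of the library's Tnfsf11 UMIs in COX2i (337 CPM, 86 UMIs), 86.1% in COX2i + 5-AZA (75.4 CPM, 143 UMIs) and 45.1% in IRF3/7 (11.4 CPM, 23 UMIs), and 11.8% in CTRL (2 UMIs in 11 NK cells). In CTRL Myofibrobl held 35.3% (6 UMIs) and TAM_C1q and TAM_cycling 23.5% each (4 UMIs), and in IRF3/7 Myofibrobl held 31.4% (16 UMIs). Of the ligands of Csf1r, Il34 was highest in Myofibrobl, a class of myofibroblasts in the sort, at 92.5 to 100 CPM across libraries. In members it had 6.29 CPM in CTRL (24 UMIs), 0 UMIs in IRF3/7, 10.4 CPM in COX2i (17 UMIs) and 2.27 in COX2i + 5-AZA (1 UMI), with 11.4 and 4.96 CPM in TAM_C1q of CTRL and COX2i. Csf1 stood there at 104 to 150 CPM, against 3.93 in CTRL members (15 UMIs), and was higher still in mast cells of CTRL (148 CPM, 47 UMIs) and COX2i (189 CPM, 20 UMIs) and in neutrophils of IRF3/7 (199.7 CPM, 34 UMIs). Only cells that passed the CD45 sort were measured, so sources outside it are not covered.

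Transcription factors split into a few that stood high and many that did not. Nfatc1 had 1739 CPM in CTRL, 773 in IRF3/7, 1619 in COX2i and 1021 in COX2i + 5-AZA, and exceeded TAM_C1q of CTRL by a log2 ratio of 3.82 and TAM_Spp1 by 2.82. Jdp2, an AP-1 family factor required for osteoclast formation, stood at 1648, 1908, 1809 and 1779 CPM (log2 ratio 2.77 against TAM_C1q). Src, the kinase of the sealing zone, had a log2 ratio of 3.34, Prdm1, which represses anti-osteoclast genes, 2.62 and Mitf, an activator of Acp5 and Ctsk, 1.31. Over all 15 genes of the list the median was 0.33, and 6 were past 2-fold higher (8.92% of all genes). The sealing zone list, which also holds Src, had a median of 0.07 against TAM_C1q of CTRL. Of its 12 genes 3 were past 2-fold higher there and 1 lower (16.9% of all genes). Against TAM_Spp1 of CTRL its median was -0.07.

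Of 6 genes that hold back osteoclast formation, 3 were at least 2-fold lower in members than in TAM_C1q of CTRL (median -0.99, against 16.9% of all genes) and 6 than in TAM_Spp1 (median -1.46, against 15.9%). Irf8 had 52.7 CPM in CTRL, 198 in IRF3/7, 84.2 in COX2i and 125 in COX2i + 5-AZA, while TAM_C1q had 257 CPM in CTRL. Irf8 was thus lowest in the CTRL members. The value of IRF3/7 rests on 13 members and was not ordered against that of COX2i + 5-AZA.

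Of 8 fusion genes 4 were past 2-fold higher than in TAM_C1q of CTRL and 1 lower (8.92% and 16.9% of all genes), with a median of 2.26. Ocstamp, a membrane protein needed for osteoclast fusion, was at 341 CPM in CTRL, 627 in IRF3/7, 461 in COX2i and 592 in COX2i + 5-AZA, against 2.73 in TAM_C1q of CTRL. Dcstamp, its partner, had 255, 33, 316 and 340 CPM, but cDC2 carried a like level (308 CPM in CTRL). Adam8, a membrane protease with a part in fusion, was lower in members, at 96.5 CPM in CTRL against 606 in TAM_C1q.

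Of 9 genes of acid secretion 7 exceeded TAM_C1q of CTRL by at least 2-fold, with a median log2 ratio of 2.54, and 8 exceeded TAM_Spp1 (median 2.37). Of all genes 8.92% and 13.8% did so. Tcirg1, the a3 subunit of the proton pump that osteoclasts place in the ruffled border, had 903 CPM in CTRL, 819 in IRF3/7, 1109 in COX2i and 919 in COX2i + 5-AZA. Clcn7, the chloride channel that works beside it, had 261, 588, 362 and 542 CPM. Slc4a2, the anion exchanger of the basal membrane, had 412, 185, 532 and 431, and Snx10, a sorting nexin whose loss causes osteopetrosis, 561, 244, 395 and 279.

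Of the V-ATPase subunits, 12 of 19 were at least 2-fold higher than in TAM_C1q of CTRL and 1 lower (8.92% and 16.9% of all genes), with a median of 1.19. Atp6v1b2 was the highest with 2813 CPM in CTRL, 2133 in IRF3/7, 2616 in COX2i and 2963 in COX2i + 5-AZA, against 458 CPM in TAM_C1q of CTRL. The a1 subunit Atp6v0a1 went the other way, with 53.2 CPM in CTRL members and 251 in TAM_C1q. Tcirg1, the alternative a subunit, had 903 CPM in CTRL members and 416 in TAM_C1q. In COX2i the ratios to TAM_C1q were 1.52 for Tcirg1 and -2.12 for Atp6v0a1 on the log2 scale.

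Nuclear-encoded genes of the respiratory chain were higher in members as a group. All 72 measured genes had a log2 ratio above 0 against TAM_C1q and TAM_Spp1 in both libraries. The medians were 1.01 and 1.19 in CTRL and 0.91 and 1.06 in COX2i, and against TAM_C1q of CTRL 38 of the 72 were past 2-fold. Over all genes the median of that comparison was -0.14, and 8.92% were past 2-fold higher. Ndufa4, a small subunit bound to cytochrome c oxidase and chosen after its values were seen, had 349 CPM in CTRL members and 108 in TAM_C1q. Mitochondrially encoded genes are not in the table used here.

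Besides Ctsk, Ctsf was past 2-fold higher in members (40.6 CPM in CTRL, against 16.5 in TAM_C1q), and Ctsa stood at 2673 against 1659 CPM, while Ctsb (2959 against 8140), Ctsc (471 against 3192) and Ctss (1084 against 4618) were lower. Of 12 cathepsins 2 were past 2-fold higher and 4 lower in that comparison, against 8.92% and 16.9% of all genes. The genes lowest in members over both classes and libraries included Pdpn, Rgs1, Alox5ap, Basp1, Sulf2, Slc15a3, Eps8, Evl and Cyp4f18. Pdpn, the membrane glycoprotein podoplanin, had 38 CPM in CTRL members, 428 in TAM_C1q and 554 in TAM_Spp1. Alox5ap, which serves leukotriene synthesis, had 162, 1235 and 1632.

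Immediate-early and heat shock genes of the dissociation response summed to 2374 CPM in CTRL members, 3682 in TAM_C1q and 11950 in TAM_Spp1. Of the 9 genes 3 were at least 2-fold lower than in TAM_C1q and 8 than in TAM_Spp1 (16.9% and 15.9% of all genes), and 0 were higher. Their part in these differences was not tested. Prostaglandin genes differed in both directions. Ptgs2, which encodes cyclooxygenase-2, the target of celecoxib, had 24.6 CPM in CTRL members, 6.60 in IRF3/7 (1 UMI), 22.1 in COX2i and 129 in COX2i + 5-AZA, against 95.6 in TAM_C1q and 857 in TAM_Spp1 of CTRL. Of the 9 measured genes of that list 5 were at least 2-fold lower than in TAM_C1q of CTRL and 2 higher (16.9% and 8.92% of all genes). The median was -1.01, or 0.0845 with no filter on low counts.

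Between COX2i and CTRL the members differed most in interferon-regulated genes. Of 9634 genes with at least 20 UMIs, 387 (4.02%) were at least 2-fold higher in COX2i members and 240 (2.49%) at least 2-fold lower, and the median over all genes was 0.07. Of these, 356 and 171 had a counting interval that left out 0. Of 14 type I interferon genes 13 were past 2-fold higher and 0 lower, with a median log2 ratio of 2.74. Of 15 interferon-gamma genes 14 were higher and 0 lower, with a median of 2.15. Bst2, at 0.84, and Cxcl9, at 0.04, were the genes of these lists that were not past 2-fold. Many genes of both lists are known to answer to either kind of interferon. Cxcl10 enters the type I median with CTRL set to the floor of 3 UMIs.

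Isg15, which encodes a ubiquitin-like modifier (ENSMUSG00000035692), lies on the minus strand of chromosome 4 from 156199424 to 156200818 in GRCm38. Its level was 20.5 CPM in CTRL (78 UMIs), 3236 in IRF3/7, 195 in COX2i and 658 in COX2i + 5-AZA. The log2 ratio of COX2i to CTRL was 3.25 (2.89 to 3.63). Irf7, a factor that amplifies the type I interferon response, had 16.3, 1525, 104 and 261 CPM (log2 ratio 2.68, 2.25 to 3.12). For both genes CTRL was lowest, then COX2i, COX2i + 5-AZA and IRF3/7, with no overlap of the counting intervals.

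Gbp2, a guanylate-binding protein induced by interferon-gamma (ENSMUSG00000028270, chromosome 3, 142620602 to 142638008, plus strand), was at 58 CPM in CTRL, 1565 in IRF3/7, 793 in COX2i and 1969 in COX2i + 5-AZA. It was seen in 26 of 380, 12 of 13, 74 of 157 and 31 of 37 members. The log2 ratio of COX2i to CTRL was 3.77 (3.57 to 3.99). Among guanylate-binding proteins and related GTPases the log2 ratio was 4.14 for Gbp8, 3.37 for Gbp4 and 3.08 for Iigp1, and Tap1, the peptide transporter of MHC class I, had 49.8, 607, 203 and 520 CPM. Whether the probes of these families also bind near-identical copies was not checked.

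The rest of the 10 largest differences upward were Cxcl10, Slamf8, Mmp12, Ly6a and Oas3. Cxcl10, a chemokine for activated T cells, had 0 UMIs in CTRL members and 103 in COX2i. With CTRL set to the floor of 3 UMIs the log2 ratio was 6.33. The Cxcl10 UMIs came from 8 members of COX2i, and without the cell with the most the value at this floor was 5.51. Slamf8, a receptor of the SLAM family, had 1.57 CPM in CTRL (6 UMIs), 271 in IRF3/7, 50.4 in COX2i and 147 in COX2i + 5-AZA. Ly6a, a surface protein induced by interferons, had 20.7, 3929, 286 and 1091 CPM, and Oas3, an antiviral synthetase, 4.72, 528, 56.5 and 152. Mmp12, macrophage elastase, had 3.93, 6.60 (1 UMI), 71.3 and 95.3 CPM, and 8 members held its UMIs in COX2i.

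Promoter sequences from RefSeq (GRCm38.p6), which cover 250 bases before and 50 bases after a gene start, were searched for the core of the interferon-stimulated response element, taken as GAAA, any 2 bases and GAAA again, or TTTC in its place on the other strand. The core occurs in 3.44% of all 32851 windows of 300 bases, and a gene can have more than 1 window. Of the type I interferon genes, 11 of 15 had a window and 7 of these held it. Of the interferon-gamma genes 6 of 11 did, and of the 10 genes with the largest differences upward 5 of the 6 with a window. It was in 1 of 9 of the genes with the largest differences downward and in 0 of the 5 marker genes with a window. It was also in 5 of 6 markers of Spp1 macrophages, in 2 of 8 acid secretion genes, 2 of 9 cathepsins and 2 of 18 V-ATPase subunits, lists of which no gene was past 2-fold higher in COX2i members. A match describes these letters only. The windows of Isg15 and Gbp2 are shown because these genes had large differences in each list. Capitals mark the matches, 3 that overlap in Isg15 (chr4:156200769-156201068, minus strand) and 1 in Gbp2 (chr3:142620413-142620712, plus strand).
Isg15: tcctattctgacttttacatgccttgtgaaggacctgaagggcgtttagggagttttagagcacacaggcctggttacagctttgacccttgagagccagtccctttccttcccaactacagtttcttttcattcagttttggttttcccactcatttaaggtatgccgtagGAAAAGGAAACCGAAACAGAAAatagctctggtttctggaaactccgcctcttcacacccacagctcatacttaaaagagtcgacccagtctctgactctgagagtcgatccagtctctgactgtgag
Gbp2: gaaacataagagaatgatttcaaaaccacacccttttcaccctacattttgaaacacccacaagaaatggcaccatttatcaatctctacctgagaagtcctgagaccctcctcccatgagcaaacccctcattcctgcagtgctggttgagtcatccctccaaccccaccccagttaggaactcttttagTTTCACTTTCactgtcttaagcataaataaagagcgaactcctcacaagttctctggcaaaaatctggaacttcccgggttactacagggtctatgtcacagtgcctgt

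The 3 matches of Isg15 begin between 78 and 66 bases before the start, and that of Gbp2 begins 59 bases before the RefSeq start, which lies inside the gene as GENCODE places it, so that this match falls within the gene bounds given above. Of the 5 resorption genes with a window, Acp5 and Ctsd held the M-box core TCANGTGA, or TCACNTGA on the other strand, to which Mitf is known to bind and which occurs in 4.18% of all windows. The Acp5 window with the core is shown because Acp5 is a marker of the class, and binding by Mitf was not tested. That window lies at chr9:22130549-22130848 on the minus strand, with the core in capitals 91 bases before the start of its transcript. This is an alternative start inside the gene, and the other 2 of the 3 Acp5 windows do not hold the core. Among other lists the core was in 1 of the 5 marker genes with a window (Acp5), in 1 of 14 of the genes highest in members, in 2 of 8 acid secretion genes, 4 of 18 V-ATPase subunits and 3 of 9 cathepsins, and in 0 of the receptor, fusion and transcription genes with a window.
Acp5: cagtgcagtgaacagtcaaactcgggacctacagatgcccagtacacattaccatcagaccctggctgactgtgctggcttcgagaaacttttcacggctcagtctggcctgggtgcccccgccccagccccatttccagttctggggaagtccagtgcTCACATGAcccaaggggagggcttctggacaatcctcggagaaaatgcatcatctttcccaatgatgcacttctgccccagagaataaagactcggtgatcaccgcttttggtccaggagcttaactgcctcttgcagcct

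The same difference was smaller in TAM_C1q and TAM_Spp1 of the same libraries, and other macrophage classes were not compared. In TAM_C1q 181 of 11273 genes were at least 2-fold higher in COX2i and 435 lower, and the medians of the type I and interferon-gamma genes were 0.29 and 0.75. In TAM_Spp1 they were 0.49 and 1.12, with 165 of 10652 genes higher and 338 lower. The log2 ratio of Isg15 was 0.51 in TAM_C1q and 0.39 in TAM_Spp1, and that of Gbp2 1.60 and 1.71. The differences between classes are of 1 library against 1 library and were not tested.

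The place of the members among the macrophages differed between the libraries. In CTRL 13 of the 14 type I interferon genes were at least 2-fold lower in members than in TAM_C1q (median -1.65, against 16.9% of all genes) and 12 lower than in TAM_Spp1 (median -1.74, against 15.9%). Bst2, at -0.19, was among those not past 2-fold against TAM_Spp1. In COX2i the medians were 0.70 and 0.91, with 3 and 6 genes at least 2-fold higher and 0 lower. Of all genes 10.9% and 14.5% were higher there, and 14% and 12.9% lower. Summed over the list, type I interferon genes stood at 492 CPM in CTRL members and 1900 in COX2i members, against 1340 and 1384 in TAM_C1q. The interferon-gamma genes went from medians of 0.24 and -0.20 in CTRL to 1.44 and 0.93 in COX2i. They summed to 768 and 3488 CPM in members and to 810 and 1302 in TAM_C1q.

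**Figure D4:**
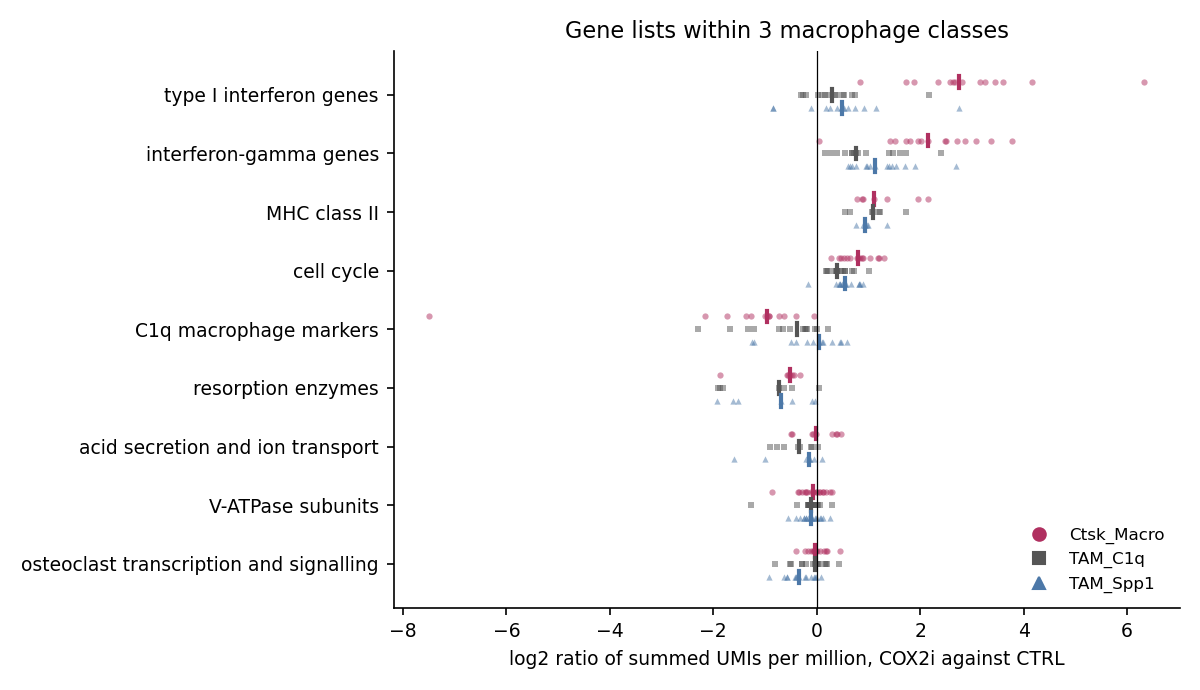
Log2 ratio of COX2i to CTRL for the genes of each list in Ctsk_Macro, TAM_C1q and TAM_Spp1; a point is a gene with at least 20 UMIs and a bar the median of the list. In Ctsk_Macro the type I interferon and interferon-gamma genes have medians of 2.74 and 2.15, and those of V-ATPase subunits and acid secretion genes lie at -0.07 and -0.01.

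Per 10000 UMIs of a cell, the type I list had a median of 2.96 UMIs in CTRL members (quartiles 1.33 and 5.68), 11.2 in COX2i (4.20 and 24.5), 35.5 in COX2i + 5-AZA (19.4 and 48.9) and 129 in IRF3/7 (106 and 165). Medians of TAM_C1q were 9.95, 10.2 and 20.4 in CTRL, COX2i and COX2i + 5-AZA. For the interferon-gamma list the members had medians of 4.61, 17.0 and 70.3 in these libraries and 98.5 in IRF3/7, and TAM_C1q 6.78, 9.26 and 22.9. The lower quartile of COX2i members lay below the upper quartile of CTRL members for the type I list (4.20 and 5.68) but above it for the interferon-gamma list (8.16 and 7.30). The IRF3/7 and COX2i + 5-AZA groups rest on 13 and 37 cells.

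**Figure D5:**
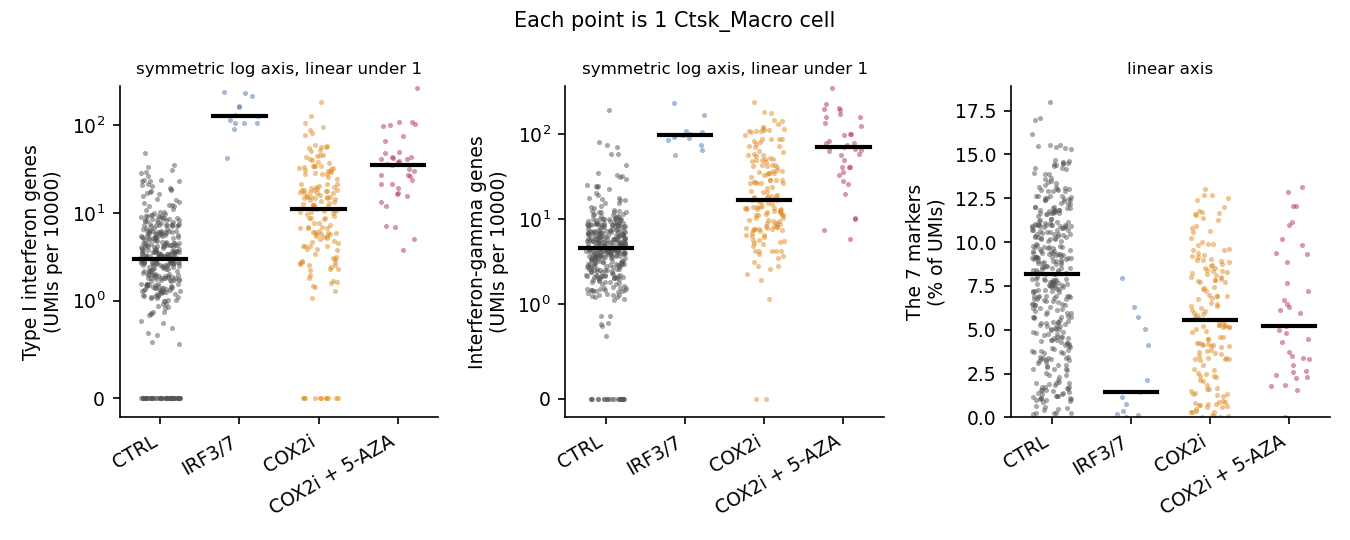
Each point is a Ctsk_Macro cell, with its UMIs of type I interferon and interferon-gamma genes per 10000 UMIs (symmetric log axis) and the percent of its UMIs in the 7 markers, by library; black lines are medians. The interferon-gamma median runs from 4.61 in CTRL to 98.5 in IRF3/7, and the marker median from 8.21% to 1.43%.

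Without the cells that shared a droplet barcode the type I and interferon-gamma medians were 2.53 and 1.96, and the share of members was 4.06% in CTRL and 1.60% in COX2i. Under alternatives chosen after seeing the data, leaving out the member with the most interferon UMIs in each library gave 2.65 and 2.18, and leaving out cells with at least 5 UMIs of mitotic genes 2.47 and 1.88. Requiring at least 3 of the 7 markers gave 2.74 and 2.14.

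Of 7 genes of antigen presentation on MHC class II 4 were past 2-fold higher in COX2i members and 0 lower (4.02% and 2.49% of all genes). The median was 1.11 in members, and the medians in TAM_C1q and TAM_Spp1 were 1.09 and 0.94. Cd74, the invariant chain, had 1136 CPM in CTRL, 2595 in IRF3/7, 2922 in COX2i and 7167 in COX2i + 5-AZA. Ciita, the activator of these genes, had 9.96, 46.2, 44.2 and 93 CPM. The COX2i + 5-AZA members were highest in Cd74. For Ciita the value of IRF3/7 comes from only 13 cells and was not ordered against COX2i + 5-AZA.

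Downward, the 10 largest differences were in Lyve1, Gpx3, Ms4a4a, Ctla2b, Clec4d, C5ar2, Pf4, Ctsl, Marcksl1 and Steap4. Lyve1, a hyaluronan receptor of tissue macrophages, had 422 UMIs from 48 members in CTRL and 1 UMI in COX2i, a log2 ratio of -7.49 (-12.80 to -5.01). Gpx3, a secreted glutathione peroxidase, had 487 CPM in CTRL, 52.8 in IRF3/7, 74.3 in COX2i and 36.3 in COX2i + 5-AZA (log2 ratio -2.71, -2.99 to -2.45). Ms4a4a, a membrane protein of macrophages, had 611, 6.60 (1 UMI), 128 and 356 CPM. Pf4, a chemokine, had 695, 19.8 (3 UMIs), 155 and 288. CTRL was thus the highest library for Gpx3, Ms4a4a and Pf4.

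Several of these genes also had log2 ratios below 0 in the other 2 classes. The log2 ratios of Gpx3 in TAM_C1q and TAM_Spp1 were -1.34 and -0.49, those of Ms4a4a -1.14 and -1.03 and those of Pf4 -1.20 and -1.21. Marcksl1, an actin-binding protein, was an exception, at -1.80 in members, 0.14 in TAM_C1q and -0.24 in TAM_Spp1. Apoe, the lipid carrier apolipoprotein E, is abundant in all 3 classes: its level in members was 22820 CPM in CTRL, 1862 in IRF3/7, 6838 in COX2i and 10443 in COX2i + 5-AZA, and the log2 ratios of COX2i to CTRL were -1.74 in members, -1.68 in TAM_C1q and -1.24 in TAM_Spp1.

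Of 13 markers of C1q macrophages 5 were past 2-fold lower in COX2i members and 0 higher (2.49% and 4.02% of all genes). Their median was -0.96 in members, against -0.39 in TAM_C1q and 0.04 in TAM_Spp1. C1qa, a chain of complement C1q, had 2064 CPM in CTRL members, 403 in IRF3/7, 1088 in COX2i and 2273 in COX2i + 5-AZA. Mrc1, the mannose receptor, had 587, 26.4, 295 and 449, and Ms4a7 397, 191, 155 and 438. The list of Spp1 macrophage markers had a median of 0.14 with 0 higher and 2 of 10 lower (4.02% and 2.49% of all genes).

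Most osteoclast genes were less than 2-fold apart between COX2i and CTRL members. The markers together took 7.82% of the members' UMIs in CTRL and 5.75% in COX2i. The 7 markers had log2 ratios from -0.57 (Mmp9) to -0.08 (Slc9b2), all downward, with Acp5 at -0.52, Oscar at -0.39, Ctsk at -0.32, Atp6v0d2 at -0.21 and Mt3 at -0.17. In TAM_C1q and TAM_Spp1, where these transcripts were scarce, the log2 ratio of Ctsk was -1.90 and -1.62. Resorption enzymes had a median of -0.52, and among them only Ctsl, cathepsin L, was past 2-fold lower (2.49% of all genes). It had 915 CPM in CTRL, 106 in IRF3/7, 250 in COX2i and 374 in COX2i + 5-AZA. The median was -0.72 in TAM_C1q and -0.69 in TAM_Spp1.

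Other osteoclast lists had medians near that of all genes. They were -0.07 for V-ATPase subunits (0 of 19 past 2-fold), -0.01 for acid secretion (0 of 9), -0.03 for transcription and signalling (0 of 15), -0.02 for repressors (0 of 6), 0.12 for fusion (0 of 8) and 0.10 for the respiratory chain (0 of 72). Receptors and adaptors had a median of -0.25 and 2 of 10 past 2-fold lower, Calcr at -1.72 (-2.78 to -0.81) and Itgb3 at -1.11 (-1.38 to -0.84). Of all genes 4.02% were past 2-fold higher and 2.49% lower. Nfatc1 stood at -0.10 and Tnfrsf11a at -0.11. In the sealing zone list Pstpip2, an adaptor that holds back osteoclast precursors, was 67.4 CPM in CTRL and 146 in COX2i (1.12, 0.86 to 1.38), Itgb3 was lower, and the median of 12 genes was 0.22.

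Of 15 cell cycle genes 4 were past 2-fold higher in COX2i members and 0 lower (4.02% and 2.49% of all genes), with a median of 0.79, against 0.40 in TAM_C1q and 0.54 in TAM_Spp1. The mitotic genes Mki67, Top2a, Cdk1 and Birc5 together stood at 169 CPM in CTRL members (156 to 183), 574 in IRF3/7 (460 to 709), 344 in COX2i (316 to 374) and 299 in COX2i + 5-AZA (251 to 355). At least 5 UMIs of them were seen in 23 of 380, 3 of 13, 20 of 157 and 7 of 37 members. In counts thinned to 2000 UMIs the share of members with any was 12.6, 23.1, 22 and 29.7%, against 18.9 and 22.5% of TAM_C1q in CTRL and COX2i, where these genes stood at 123 and 148 CPM. As the thinned shares and the CPM order members and TAM_C1q of CTRL differently, no order was read from them. In TAM_cycling the shares were 76.4 and 79.8%.

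Among prostaglandin genes 1 of 9 was past 2-fold lower (2.49% of all genes), Hpgd, which degrades prostaglandins. It had 20.5 CPM in CTRL (78 UMIs), 3.69 in COX2i (6 UMIs) and 0 UMIs in IRF3/7 and COX2i + 5-AZA, and its log2 ratio was -2.47 (-3.96 to -1.29) in members, 0.02 in TAM_C1q and 0.36 in TAM_Spp1. Ptgs2 stood at -0.16 (-0.75 to 0.41) and Ptgs1, cyclooxygenase-1, at 0.02 (-0.93 to 0.90), at 94 and 37 UMIs in CTRL. The median of the list was -0.16. The intervals of Ptgs2 and Ptgs1 held 0, so small differences in these genes could not be seen at this depth.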

How the data were processed

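Per the labels and the study's methods, the authors made the deposited table of counts (UMIs per gene and cell) with Cell Ranger 7.1.0 and a probe set on mm10. They filtered cells by detected genes and by mitochondrial and ribosomal share, and assigned 17 classes by clustering several experiments together. The table holds 12584 genes in 34447 cells, and classes and libraries were taken from the deposited cell metadata. The table used here keeps no reads, so mapping could not be checked.

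Here UMIs were summed over the cells of a class in a library and divided by their total (CPM). Intervals are exact at 95% (Poisson for levels, Clopper-Pearson for shares, conditional binomial for ratios) and cover counting error only, since each group is 1 pooled library. Ratios between libraries needed 20 UMIs per gene over both sides and 50 cells, and a gene was called past 2-fold. A side with 0 UMIs was set to 3 UMIs. Cells were thinned to 2000 UMIs with a fixed seed where shares of cells with a UMI were compared. No doublet caller was run. Named genes were the 7 markers, members of the gene lists, the 10 largest differences in each direction between COX2i and CTRL members (at least 50 UMIs and 50 CPM) and the 20 highest and 10 lowest genes against both TAM classes in both libraries. The members, lists and rule were chosen with earlier results of these data known. Gene positions follow GENCODE on GRCm38. The ratio scripts were tested on simulated data. Some genes that the rule names are not reported here. Python 3.11.15, numpy 2.4.6, scipy 1.17.1, pandas 2.3.3 and matplotlib 3.10.9 were used.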

Additional observations from a re-analysis of the deposited data

Results flagged for a closer look

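S100a9, a neutrophil calcium-binding protein, differed in direction between classes. Its log2 ratio of COX2i to CTRL was 1.703 in Ctsk_Macro members (34.4 and 112 CPM in CTRL and COX2i), against -3.54 in TAM_C1q and -1.47 in TAM_Spp1. The difference was not tested. The 182 UMIs of COX2i members lay in 6 cells, and without the member with the most UMIs in each library the log2 ratio was -1.73.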

How the results depend on the processing

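No paired analysis was possible because each group had 1 library, and for the same reason no replicate could be left out. Of the values that answer a comparison, 125 stayed within the counting interval of the reported value (counts of genes and medians of lists within 1.5 times) and 16 moved past it. These intervals are wide for the 13 IRF3/7 members. Of the other values 1808 stayed by the same measure, 210 moved and 6 reversed. Over all macrophages in place of all cells the shares were 5.08, 2.96, 2.30 and 0.899% in CTRL, IRF3/7, COX2i and COX2i + 5-AZA, and the log2 ratios to CTRL -0.78 for IRF3/7 and -2.50 for COX2i + 5-AZA. With at least 50 UMIs 247 genes were past 2-fold higher and 121 lower in COX2i members, and with no filter 799 and 445. With no filter 1911 genes were higher in members than in TAM_C1q of COX2i. At least 4 markers were seen in 83.9% of CTRL, 38.5% of IRF3/7, 78.3% of COX2i and 67.6% of COX2i + 5-AZA members thinned to 1000 UMIs, and without thinning in 98.4% of CTRL, 76.9% of IRF3/7, 91.7% of COX2i and 97.3% of COX2i + 5-AZA members. S100a9 reversed to -3.68 without cells that shared a droplet barcode and to -1.73 without its top member. The median of prostaglandin genes against TAM_C1q of CTRL was 0.0845 with no filter. Without cells with at least 5 mitotic UMIs, an alternative chosen after seeing the data, the cell cycle median against TAM_Spp1 was -0.26 in CTRL and -0.46 in COX2i. The dendritic cell marker median against TAM_Spp1 of CTRL was 0.12 with at least 50 UMIs. Apart from the fewer genes or cells that each alternative keeps, the cause was not tested.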

Other observations

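Trac, the constant segment of the T cell receptor alpha chain (chromosome 14, 54220521 to 54224206, plus strand, GRCm38), was seen in Ctsk_Macro members of every library. Its level was 13.9 CPM in CTRL (10.4 to 18.2), 13.2 in IRF3/7 (2 UMIs), 10.4 in COX2i and 18.2 in COX2i + 5-AZA. The members held 93.0% of the Trac UMIs of the CTRL library and 94.4% of those of COX2i, while TAM_C1q and TAM_Spp1 had 0 UMIs there. The 53 UMIs of CTRL came from 43 cells, with at most 3 in a cell, and no other of the 11 T and NK cell markers had a UMI in members of CTRL, COX2i and COX2i + 5-AZA. In IRF3/7 members Nkg7 and Gzmb had 1 UMI each. What the probes detected was not tested.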
